A study of Mus musculus with 8 samples.

Results

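Dazl, Dpep3, Tuba3a, Sycp2, Taf7l and Tex11 are genes used mainly in germ cells. They were taken here as the probes that carry those 6 gene names in the design of a mouse CpG island array. The design holds 42 such probes, and 37 of them passed the filters on spot quality and input signal. The 37 probes form 1 region per gene, so the genes hold 6 of the 13183 regions with at least 3 probes on the array, and 6 of its 10539 gene names with a region. A region joins probes whose starts lie up to 500 bp apart.

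Methylated DNA was measured by mDIP: sonicated, denatured genomic DNA was precipitated with an antibody against 5-methylcytidine, and bound and input DNA of the same sample were hybridised together with 2 dyes. The 8 samples are 8 groups of 1 array. Mouse embryonic stem (ES) cells were wild type, aid-/-, mbd4-/- or carried a Gadd45a knockdown (4 arrays). Liver and spleen of aid-/- mice and of mbd4-/- mice, strain C57BL6/J at 6 months of age, gave the other 4. Wild-type tissues were not analysed here. Aid is a cytidine deaminase, Mbd4 a glycosylase that binds methylated CpG, and Gadd45a a stress response gene that has been linked to DNA demethylation. The labels used here name no ES line, clone, passage or knockdown method, and do not say whether a tissue sample was pooled. Because no group has a second array, differences between 2 arrays compare those arrays only.

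In mammals the CpG islands at the starts of many germline genes are methylated around implantation, unlike most CpG islands, and this methylation is kept in body cells while the genes stay silent. In primordial germ cells it is removed, and the genes become available for germ cell development and meiosis.

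The bases before the annotated starts are shown because 1 or 2 used probes of Dazl, Dpep3, Tuba3a and Taf7l lie in them. These place the start, and the other used probes lie inside the genes. No Sycp2 probe lies in the bases printed for it. Each window was taken at 1 annotated start, from which distances and sides are counted. For Sycp2 and Taf7l a longer transcript begins upstream of it, and bases inside that transcript are not printed. The bases shown are described next. They come from RefSeq windows of build GRCm38.p6, found for 5 of the 6 genes, all on the minus strand, and are written 5′ to 3′ up to the most upstream annotated start of the gene, with each CpG in capitals. The windows are Dazl chr17:50293621-50293870, Dpep3 chr8:105979420-105979669, Tuba3a chr6:125286082-125286331, Sycp2 chr2:178407777-178407908 and Taf7l chrX:134476506-134476740.
Dazl: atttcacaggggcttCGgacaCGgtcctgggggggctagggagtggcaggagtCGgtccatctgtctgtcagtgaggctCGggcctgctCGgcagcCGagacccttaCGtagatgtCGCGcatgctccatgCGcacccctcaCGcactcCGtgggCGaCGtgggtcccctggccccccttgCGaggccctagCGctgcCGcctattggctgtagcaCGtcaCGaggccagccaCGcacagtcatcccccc
Dpep3: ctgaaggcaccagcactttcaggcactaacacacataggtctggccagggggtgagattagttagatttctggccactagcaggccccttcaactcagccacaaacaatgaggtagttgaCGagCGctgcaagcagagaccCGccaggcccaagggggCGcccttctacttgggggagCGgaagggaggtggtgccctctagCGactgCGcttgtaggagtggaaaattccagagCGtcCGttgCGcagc
Tuba3a: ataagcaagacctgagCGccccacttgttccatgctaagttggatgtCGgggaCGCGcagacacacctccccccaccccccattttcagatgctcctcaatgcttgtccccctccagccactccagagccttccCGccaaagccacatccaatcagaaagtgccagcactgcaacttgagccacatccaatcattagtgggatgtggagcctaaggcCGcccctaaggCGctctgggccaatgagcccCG
Sycp2: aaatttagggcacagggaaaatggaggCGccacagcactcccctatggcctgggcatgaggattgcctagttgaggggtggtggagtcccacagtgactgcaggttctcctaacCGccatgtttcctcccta
Taf7l: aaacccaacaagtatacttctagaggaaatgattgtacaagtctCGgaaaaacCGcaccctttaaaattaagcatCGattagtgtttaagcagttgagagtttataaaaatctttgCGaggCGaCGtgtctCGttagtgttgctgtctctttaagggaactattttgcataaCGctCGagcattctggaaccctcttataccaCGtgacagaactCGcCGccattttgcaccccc

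Over the full 250 bases before the start, Dazl held 20 CpGs, Taf7l 14, Dpep3 10, Tuba3a 8 and Sycp2 7. The median of all 32851 windows of that length was 6 CpGs and the 90th percentile 25, so all 5 lay above the median and none reached that percentile. GC content ran from 44.8% (Taf7l) to 67.2% (Dazl), against a median of 52.4% over all windows. The E-box letters CACGTG, a palindrome and so the same on both strands, occurred in the Taf7l window and in 6.02% of all windows. The letters TCCCGC, an E2F-type motif searched on both strands, occurred in the Tuba3a window and in 16.9% of all windows. Neither motif was found in the windows of Dazl, Dpep3 or Sycp2. A match is a description of these letters only.

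Of Tex11 only array probes can be shown. Its 4 used probes lie on the X chromosome between 98254914 and 98255208 (mm9). The probe with most CpGs and the pair of neighbours in the middle are given, with CpGs in capitals.
Tex11 98254914: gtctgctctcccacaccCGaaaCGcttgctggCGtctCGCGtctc
Tex11 98255023: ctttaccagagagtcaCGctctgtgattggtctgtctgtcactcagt
Tex11 98255087: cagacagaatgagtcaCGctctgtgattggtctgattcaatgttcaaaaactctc
The middle neighbours share a run of 24 bases, gagtcaCGctctgtgattggtctg, so they are not independent readings of Tex11.

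Probe positions are in build mm9, per the file headers. Matching the probe sequences to the windows placed each of the 5 starts, with 1 or more probes of each gene found in its own window and in no other gene's. Dazl (chromosome 17, 50432140 to 50433097, 8 probes) had 1 probe upstream of the start and 7 inside the gene. Dpep3 (chromosome 8, 108502836 to 108503481, 6 probes) had 2 upstream and 4 inside. Tuba3a (chromosome 6, 125235862 to 125236181, 3 probes) had 1 and 2, Sycp2 (chromosome 2, 178141876 to 178142402, 5 probes) had 1 and 4, and Taf7l (X chromosome, 131009632 to 131011149, 11 probes) had 1 and 10. The Sycp2 probe counted as upstream spans the start of the window, from −39 to 6 bp, and lies inside the longer transcript. The 5 probes left out were 1 of Dazl, 3 of Taf7l and 1 of Tex11. The readings of these 5 genes thus cover the start and the first part of the gene, and the start of Tex11 was not placed. Exons and introns were not annotated here.

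The level of a region is the log2 ratio of bound to input DNA, centred on the median probe of the array and averaged over the region's probes. Arrays differed in how far the most bound regions rose. The plateau of an array, set at the 98th percentile of its autosomal regions, was 2.23 to 4.34 log2. It was lowest in aid-/- liver (2.23) and aid-/- spleen (2.24) and highest in aid-/- ES cells (4.34). Levels are therefore also given as shares of each array's plateau. A share ranks antibody binding within an array and is no methylation percentage. The median background-subtracted input signal was 96.7 to 251, and 70.6% to 96.2% of the used probes had a bound signal well above background. Genes of ES cells, liver and blood could be read only as DNA methylation, which does not test the identity of the cells.

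All 6 germ cell regions were among the most strongly bound on every array. Each of the 48 values was above 50% of the plateau, and 32 reached or passed the plateau. Of the 48, 3 fell below 50% under other processing, all in the knockdown: Taf7l (0.401 to 0.456 under 3 alternatives), Tex11 (0.497) and Sycp2 (0.470). The background is low: 496 of 13183 regions (3.76%) stood at or above 50% of the plateau on all 8 arrays. The lowest of the 48 values still lay at the 94.3th percentile of the regions of its array, and 307 regions (2.33%) were at or above the 94th percentile on all 8 arrays. Of 296 readings of the used probes, 295 had a bound signal above background, and 294 were above the array median. No spot of these genes was saturated. The members were chosen with earlier results of these data known, so these counts describe them and test nothing.

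**Figure D1:**
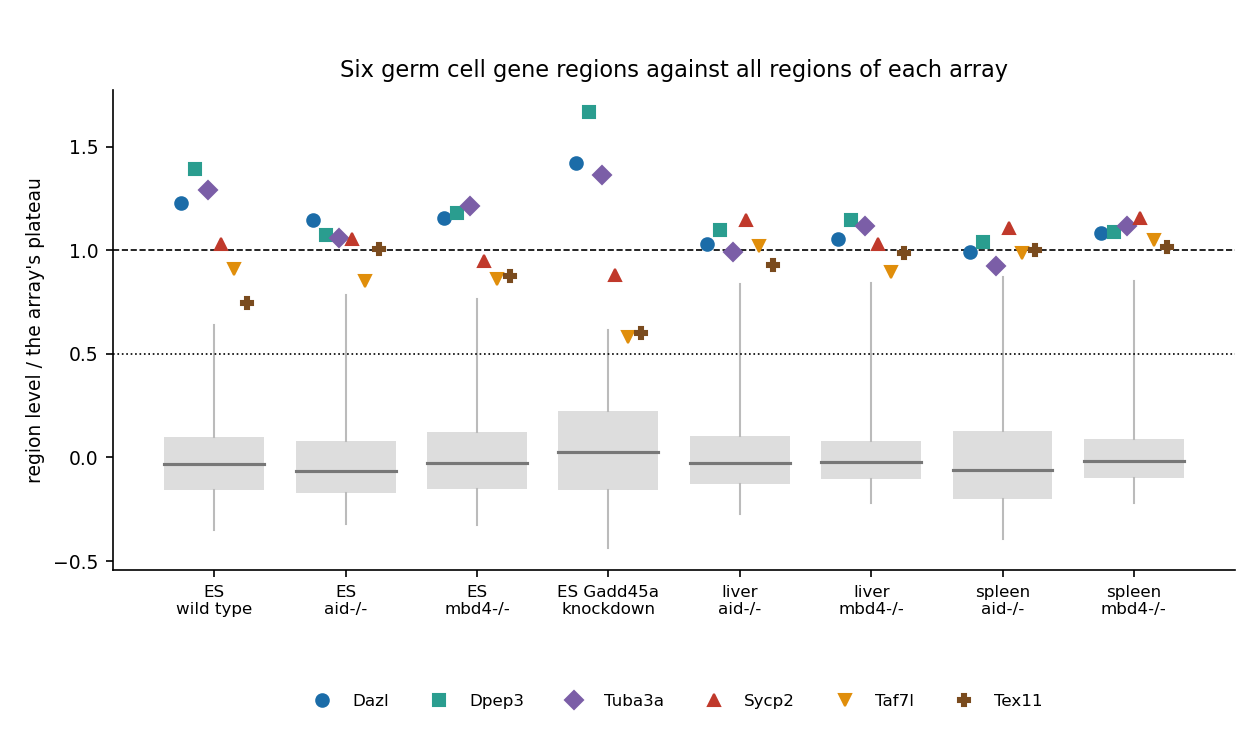
Region levels of the 6 germ cell genes (coloured symbols) on each of the 8 arrays, as a share of the array's plateau (dashed line at 1, dotted line at 0.5). Grey boxes span the middle of all 13183 regions of the array with their median, and grey lines run from the 5th to the 95th percentile. All 48 symbols lie between 0.583 and 1.669, above the dotted line, and their spread is widest on the Gadd45a knockdown array.

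Dazl encodes an RNA-binding protein needed for germ cell development in both sexes. Its levels were 4.14 in wild-type, 4.98 in aid-/-, 4.98 in mbd4-/- and 3.97 in Gadd45a knockdown ES cells, 2.30 and 4.24 in liver of aid-/- and of mbd4-/- mice, and 2.22 and 3.96 in their spleens, with SDs over 8 probes of 0.71 to 1.36. Both aid-/- tissues were the lowest in log2, and they were also the arrays with the lowest plateau. As shares, Dazl ran from 0.99 in aid-/- spleen to 1.42 in the knockdown, and every ES array was above every tissue array.

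Dpep3 encodes a membrane-bound dipeptidase of the testis. It stood at 4.68, 4.67, 5.08 and 4.67 in wild-type, aid-/-, mbd4-/- and knockdown ES cells, at 2.45 and 4.60 in liver of aid-/- and of mbd4-/- mice, and at 2.33 and 3.98 in their spleens (SDs over 6 probes of 0.23 to 0.96). The 4 ES values lay close together in log2. On the plateau scale it held the highest value of all 6 genes, 1.67 in the knockdown, followed by 1.39 in wild-type ES cells, and the other 6 arrays lay between 1.04 and 1.18.

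Tuba3a encodes an alpha-tubulin of the testis. Its 3 probes gave 4.35, 4.60, 5.22 and 3.82 in wild-type, aid-/-, mbd4-/- and knockdown ES cells, 2.21 and 4.49 in liver of aid-/- and of mbd4-/- mice, and 2.07 and 4.09 in their spleens (SDs of 0.17 to 1.00). As shares these ran from 0.93 in aid-/- spleen to 1.37 in the knockdown. The probe just upstream of the Tuba3a start holds no CpG of its own. It read 3.46 in aid-/- and 4.93 in wild-type ES cells, while the probe farthest inside the gene read 5.03 and 4.03, so the probes of this gene did not move together.

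Sycp2 encodes a protein of the chromosome axes on which homologous chromosomes pair in meiosis. Its levels were 3.46, 4.59, 4.08 and 2.46 in wild-type, aid-/-, mbd4-/- and knockdown ES cells, 2.56 and 4.13 in liver of aid-/- and of mbd4-/- mice, and 2.47 and 4.23 in their spleens (SDs over 5 probes of 0.19 to 0.84). It was lowest in the knockdown on the plateau scale (0.88) and highest in mbd4-/- spleen (1.16) and aid-/- liver (1.15). It was the narrowest of the 6 genes on that scale.

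Taf7l, an X-linked relative of a subunit of the general transcription factor TFIID, works in male germ cells. Its 11 probes averaged 3.06, 3.70, 3.72 and 1.63 in wild-type, aid-/-, mbd4-/- and knockdown ES cells, 2.27 and 3.59 in liver of aid-/- and of mbd4-/- mice, and 2.20 and 3.84 in their spleens (SDs of 0.27 to 1.26). The knockdown value, at a share of 0.58, was the lowest of all 48, and the other 7 arrays gave 0.85 to 1.05.

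Tex11, also X-linked, encodes a protein that promotes crossing over in meiosis. It stood at 2.51, 4.37, 3.77 and 1.69 in wild-type, aid-/-, mbd4-/- and knockdown ES cells, at 2.07 and 3.96 in liver of aid-/- and of mbd4-/- mice, and at 2.25 and 3.72 in their spleens (SDs over 4 probes of 0.23 to 0.61). Its shares were 0.60 in the knockdown, 0.75 in wild-type ES cells and 0.88 to 1.02 on the other 6 arrays, so wild-type and knockdown ES cells were the lowest arrays.

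On the plateau scale the genes showed 2 orders over the arrays. Dazl, Dpep3 and Tuba3a had their highest shares in knockdown ES cells, and Sycp2, Taf7l and Tex11 their lowest there. The knockdown plateau (2.80) was the lowest of the ES arrays. In log2 no member was higher in the knockdown than in wild-type ES cells, with differences of −1.43 to −0.01. Over the 8 arrays the shares of Dazl, Dpep3 and Tuba3a correlated with each other at Pearson's r of 0.88 to 0.94, and each correlated with Sycp2, Taf7l and Tex11 at −0.71 to −0.97. Without the knockdown array the first values were 0.79 to 0.88 over 7 arrays and the second −0.33 to −0.94. The weakest of these was Dpep3 with Taf7l, which went from −0.83 to −0.33. Among Sycp2, Taf7l and Tex11 the values were 0.76 to 0.92 over 8 arrays, and without the knockdown Sycp2 with Taf7l stayed at 0.88 but Sycp2 with Tex11 fell to 0.48 and Taf7l with Tex11 to 0.28. All values of an array share its library and its plateau, so these are descriptions. Mean probe GC was 60.7% for Dazl, 51.1% for Dpep3 and 57.4% for Tuba3a, and 59.8%, 59.5% and 51.6% for Sycp2, Taf7l and Tex11. With a GC correction on each array the knockdown shares were 1.19, 1.68 and 1.22 for the first 3 genes and 0.72, 0.46 and 0.69 for the others. After the correction Dpep3 and Dazl were still highest in the knockdown, but Tuba3a was highest in wild-type ES cells (1.247), and Sycp2, Taf7l and Tex11 were lowest in the knockdown. In the deposited values Dpep3 alone of the first 3 genes was highest there, while Dazl (1.126) and Tuba3a (1.181) were below wild-type ES cells (1.345 and 1.342).

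Along the genes, Dazl fell with distance from its start on every array. In wild-type ES cells the upstream probe, centred at −130 bp, read 5.395, the probe centred 36 bp inside read 5.41, and the probe centred 783 bp inside read 2.09. In aid-/- spleen the values at the same 3 probes were 2.82, 2.92 and 0.67. The Dazl probe that was left out lies beyond these, centred 1005.5 bp inside the gene, where it read −0.66 to 1.96.

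Taf7l showed its knockdown value far from the start. Its 5 probes nearer than 700 bp averaged 2.67 ± 0.53 (SD over probes) in the knockdown, a share of 0.96, against 0.92 to 1.07 on the other 7 arrays. Its 6 probes farther than 700 bp averaged 0.76 ± 0.98 in the knockdown, a share of 0.27, against 0.70 to 0.79 on the other ES arrays and 0.87 to 1.08 in liver and spleen. The 700 bp limit was set after the values were seen. At 3 of these farther probes, centred 1078, 1004 and 923 bp inside the gene, the knockdown read −0.53, 0.68 and 0.75, where wild-type ES cells read 3.63, 3.20 and 2.44. The probe centred 1256 bp inside read 1.84 in the knockdown and 2.65 in wild type, so the low stretch was not even. Near the start the knockdown and wild-type values of Taf7l lay closer, 3.44 and 3.78 at the upstream probe.

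Sycp2 had a similar shape on a shorter stretch. In the knockdown its start probe read 3.75, above the wild-type value of 3.48. Its 3 probes farthest inside read 2.07, 2.06 and 1.74, where wild type read 3.57, 4.31 and 3.78. Dpep3 had no such slope in the knockdown: its 6 probes read 4.08 to 5.11. Sonicated fragments are longer than a probe, so neighbouring probes share fragments and are no replicates.

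**Figure D2:**
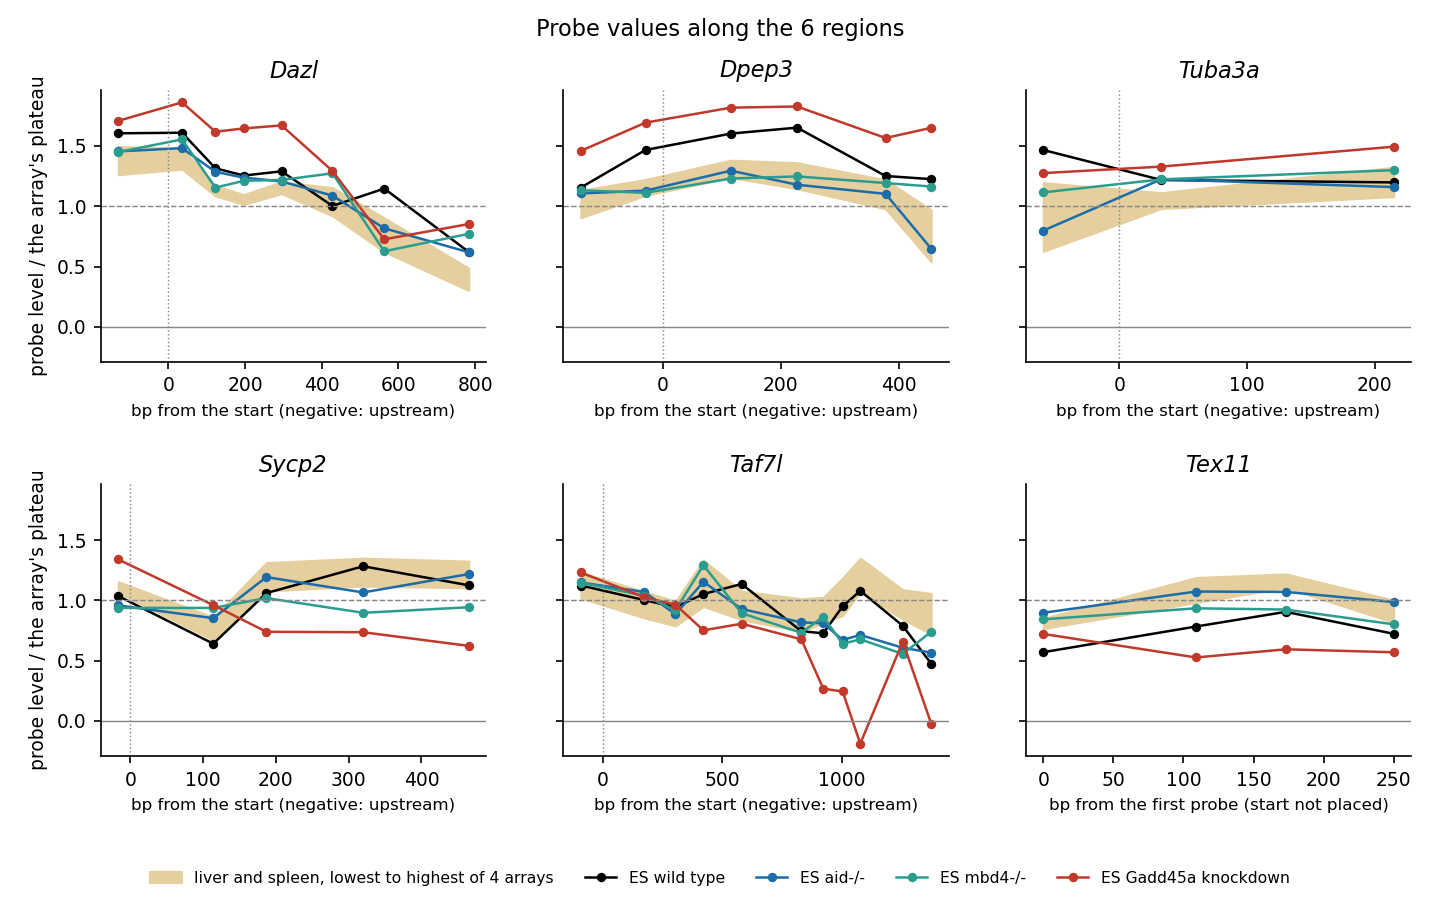
Values of the used probes along the 6 regions, as a share of each array's plateau (y axis), against distance in bp from the RefSeq start, negative upstream (x axis), or for Tex11 from its first probe. Lines are the 4 ES arrays, and the band spans the lowest to the highest of the 4 liver and spleen arrays at each probe. In the knockdown (red) all 6 probes of Dpep3 and most probes of Dazl and Tuba3a run above the other arrays, and Taf7l drops toward 0 beyond 700 bp while its probes near the start stay close to the plateau.

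The first comparison asks whether CpG islands of ES cells that lack Aid or Mbd4, or have less Gadd45a, differ from wild type. With 1 array on each side there is no test, so a call needed a difference of 1 log2 or more that 75% or more of the region's probes shared in direction. The 3 comparisons share the wild-type array. In aid-/- ES cells Tex11 (4.37 against 2.51, a difference of 1.86, 4 of 4 probes) and Sycp2 (4.59 against 3.46, 1.13, 5 of 5 probes) were higher, and no member was lower. The background of this call was 6.77% of all regions for higher and 3.71% for lower. The wild-type plateau was lower than that of aid-/- (3.36 against 4.34). With the arrays brought to 1 plateau, neither gene passed (0.88 and 0.10, background 2.61%), and Dpep3 was called lower (−1.06), as were 1.62% of all regions.

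In mbd4-/- ES cells Tex11 was again the 1 member past the rule (3.77 against 2.51, a difference of 1.26, 4 of 4 probes), and 7.95% of all regions were higher. The other 5 members differed by 0.40 to 0.87. At 1 plateau no member was called higher (background 2.94%), and Tex11 differed by 0.44. In the Gadd45a knockdown Taf7l was lower (1.63 against 3.06, a difference of −1.43), with all 11 probes lower, and 5.88% of all regions were lower. Sycp2 read 2.46 against 3.46, with 3 of 5 probes lower, which is under 75%, and so did not pass. At 1 plateau the Taf7l difference was −1.10, but fewer than 75% of its probes were lower and it was not called, nor was any other member (background 6.55%). Dpep3 and Dazl then differed by 0.93 and 0.64 in the other direction. The knockdown and mbd4-/- ES arrays were each scanned on a day of their own and the wild-type array with the aid-/- arrays. Both were also read with another version of Agilent Feature Extraction than the wild-type array. Scan day, software version and these conditions therefore cannot be told apart.

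Between aid-/- and mbd4-/- ES cells no member passed the rule in either direction, where 1.70% of all regions were higher in aid-/- and 3.47% lower. Tex11 (0.60) and Sycp2 (0.51) had the highest differences, and Tuba3a the lowest (−0.62). Dazl differed by less than 0.01, with 4 of 8 probes higher.

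In liver all 6 members were lower in aid-/- than in mbd4-/-, by 1.32 (Taf7l) to 2.29 (Tuba3a) log2, with every probe lower. Of all regions 8.01% were lower. In spleen all 6 were lower by 1.48 (Tex11) to 2.02 (Tuba3a), again with every probe lower, and 8.15% of all regions were lower. These differences went with the plateaus, which were 2.23 against 4.02 in liver and 2.24 against 3.65 in spleen. With the arrays at 1 plateau 0 of 6 members passed in either tissue, where 1.05% of all regions in liver and 3.82% in spleen were called lower, and the differences ran from −0.43 (Tuba3a) to 0.42 (Taf7l) in liver and from −0.65 (Tuba3a) to −0.05 (Tex11) in spleen. The Taf7l and Sycp2 shares were thus higher in aid-/- liver (1.02 and 1.15) than in mbd4-/- liver (0.89 and 1.03), while their log2 levels were lower. The spleen backgrounds hold the X chromosome regions, whose median level was 0.182 in aid-/- and 2.280 in mbd4-/- spleen. How many of the spleen calls were X regions was not counted.

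**Figure D3:**
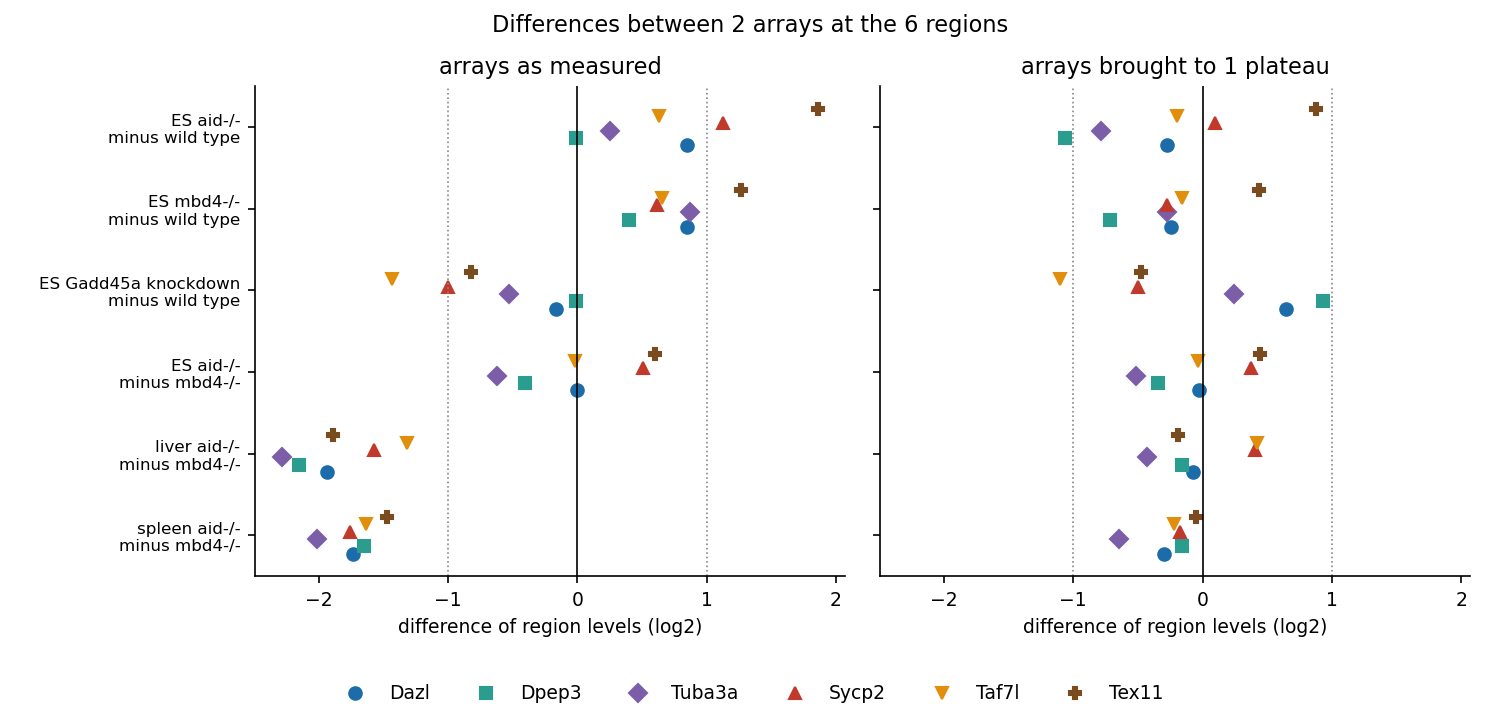
Differences in region level between 2 arrays (x axis, log2) for the 6 genes in 6 comparisons, with the arrays as measured (left) and brought to 1 plateau (right). Dotted lines mark a difference of 1. In liver and spleen all 6 genes lie left of −1 as measured and between −0.65 and 0.42 at 1 plateau.

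Over the 3 cell sources together, aid-/- was compared with mbd4-/- by limma on 6 arrays with the tissue as a block. No region of 13183 passed an adjusted p of 0.05 (0% called), and 1679 had an unadjusted p under 0.05. The 6 members differed by −0.92 (Tex11) to −1.64 (Tuba3a), with limma adjusted p of 0.387 to 0.421. At 1 plateau Tuba3a differed by −0.53 and Sycp2 by 0.20, and no member passed. Without the ES pair, which leaving out either of its arrays removes from this comparison, the 6 members differed by −1.48 to −2.15. That difference rests on the 4 tissue arrays. Their plateaus were 2.23 in aid-/- against 4.02 in mbd4-/- liver, and 2.24 against 3.65 in spleen. In the comparisons of 2 arrays at 1 plateau, 0 members were called in either tissue. With the plateaus as measured, up to 6 members passed limma in fits without 1 array, where the fit on 6 arrays called none. All aid-/- arrays were scanned on 1 day and all mbd4-/- arrays on other days, so scan day and genotype cannot be told apart. An interaction in limma asked whether the genotype difference in ES cells, from 1 pair of arrays without a spread, differed from that in tissues. It was chosen after seeing the data, 3.45% of all regions passed it, and so did Tex11, Sycp2 and Dazl, but no member passed at 1 plateau.

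The next question is whether the germ cell genes differ between ES cells and adult tissues. The 4 ES arrays were set against the 4 liver and spleen arrays by limma, each genotype counting as a replicate of its cell source. Of all regions 29 (0.22%) passed an adjusted p of 0.05, and none of the 6 members did. Without the knockdown array 198 regions passed, and 0 to 8 passed without wild-type, aid-/- or mbd4-/- ES cells, mbd4-/- liver or mbd4-/- spleen, again with no member among them. Dpep3 was higher in ES cells by 1.44 ± 0.50 (SE; limma adjusted p = 0.235), Dazl by 1.34 ± 0.52 (0.280) and Tuba3a by 1.28 ± 0.59 (0.354). Sycp2, Tex11 and Taf7l differed by 0.30, 0.08 and 0.05, with limma adjusted p of 0.855 to 0.979. The median difference over all regions was −0.06. Only 1 scan day held both ES cells and tissues, and its tissues were the aid-/- arrays with the lowest plateaus. With scan day as a block the 6 differences therefore come from the 4 arrays of that day alone. They were all larger, at 2.29 (Dpep3), 2.30 (Dazl), 2.33 (Tuba3a), 1.51 (Sycp2), 1.28 (Tex11) and 1.14 (Taf7l), with limma adjusted p of 0.0515 to 0.363. In the deposited values those of Dpep3, Dazl and Tuba3a were 0.32, 0.11 and 0.23 on the scale of that table.

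On the plateau scale the genes split. The mean share of Dazl was 1.24 ± 0.13 (SD, n = 4) in ES cells and 1.04 ± 0.04 (n = 4) in tissues. That of Dpep3 was 1.33 ± 0.26 and 1.09 ± 0.04, and that of Tuba3a 1.23 ± 0.13 and 1.04 ± 0.10. For Sycp2, Taf7l and Tex11 the order was the other way: 0.98 ± 0.08 against 1.11 ± 0.06, 0.80 ± 0.15 against 0.99 ± 0.07, and 0.81 ± 0.17 against 0.98 ± 0.04. At 1 plateau the limma differences ran from 0.80 (Dpep3) to −0.62 (Taf7l), with adjusted p of 0.244 to 0.411, so none passed. Dazl was the 1 member whose ES and tissue shares did not overlap; 4.19% of all regions had all 4 ES shares above the 4 tissue shares, and 7.62% had them below. One scan day held both wild-type and aid-/- ES cells and aid-/- tissues. Within that day the mean share in ES cells was higher by 0.218 (Tuba3a), 0.176 (Dazl) and 0.165 (Dpep3), and differed by −0.084, −0.121 and −0.090 for Sycp2, Taf7l and Tex11. In log2 all 6 were higher in ES cells within that day, by 1.142 (Taf7l) to 2.335 (Tuba3a), where the aid-/- tissues also had the lowest plateaus. These are the same values as with scan day as a block, not a separate result.

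Taf7l and Tex11 lie on the X chromosome, where 350 other regions were measured. The median share of those regions was 0.06 to 0.23 on 7 arrays and 0.62 in mbd4-/- spleen, where 73.4% of them reached 50% of the plateau against 8.80% of autosomal regions. Both genes stood far above the X median on every array. In mbd4-/- spleen, where the X regions as a group were high, Taf7l was at 1.05 and Tex11 at 1.02, and in aid-/- spleen, where they were not, at 0.99 and 1.00. The gap to the X median was smallest in the knockdown, 0.58 and 0.60 against 0.23, and in mbd4-/- spleen.

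**Figure D4:**
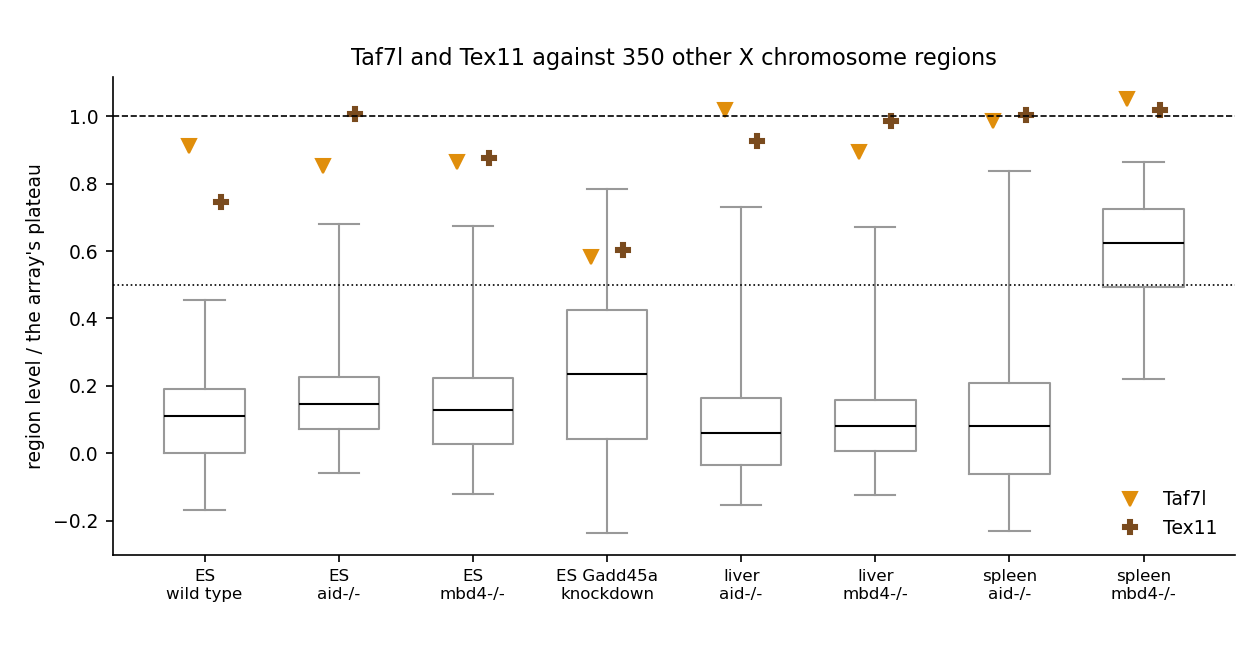
Shares of the plateau for Taf7l and Tex11 (symbols) and for 350 other X chromosome regions (boxes: middle of the regions and median, whiskers from the 5th to the 95th percentile) on each array. Taf7l and Tex11 are above the upper whisker on 7 arrays and within it on the Gadd45a knockdown array.

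The 6 genes were then placed among other genes of the germline, from 5 lists of 107 other genes, of which 50 had a region (52 regions). Of these regions 12 were at or above 50% of the plateau on all 8 arrays, against 3.76% of all regions, and 28 on none, against 83.2% of all regions. High regions on all 8 arrays numbered 3 of 7 for meiotic axis, synapsis and cohesin genes (Sycp1, Sycp3 and Hormad1) and 3 of 7 for germ cell forms of general proteins (Pdha2, Actl7b and Slc25a31). They numbered 5 of 16 for germ cell RNA regulators, among them Mael and Piwil1. They numbered 1 of 13 for meiotic recombination, the list of Tex11, where Spo11, the enzyme that makes the meiotic DNA breaks, was the one. For germ cell transcription and chromatin genes, the list of Taf7l, none of 9 was high on all 8 arrays. The median share by list was 0.80, 0.87, 0.43, 0.08 and −0.06 in that order, and −0.03 over all regions. The lists were chosen with results of these data known.

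None of the 52 regions passed the limma comparison of ES cells with liver and spleen. Their median difference was −0.09, against −0.06 over all regions. The largest positive differences belonged to Pdha2, a testis form of a pyruvate dehydrogenase subunit (1.30, limma adjusted p = 0.305), and Actl7b, an actin relative of sperm cells (0.93, 0.331). The largest negative ones belonged to Msh4, a mismatch repair relative that works in meiotic crossing over (−1.70, 0.247), and Boll, an RNA-binding relative of Dazl (−1.32, 0.281). Msh4 shares ran from −0.04 to 0.96 and Boll shares from −0.20 to 0.84, ranges that none of the 6 members had. At 1 plateau Msh4 (−2.17, adjusted p = 0.009), Dmc1, the meiotic strand exchange protein (−1.61, 0.008), and Boll (−1.85, 0.044) were lower in ES cells by limma. These were 3 of the 52 regions, where 3.24% of all regions passed in either direction.

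**Figure D5:**
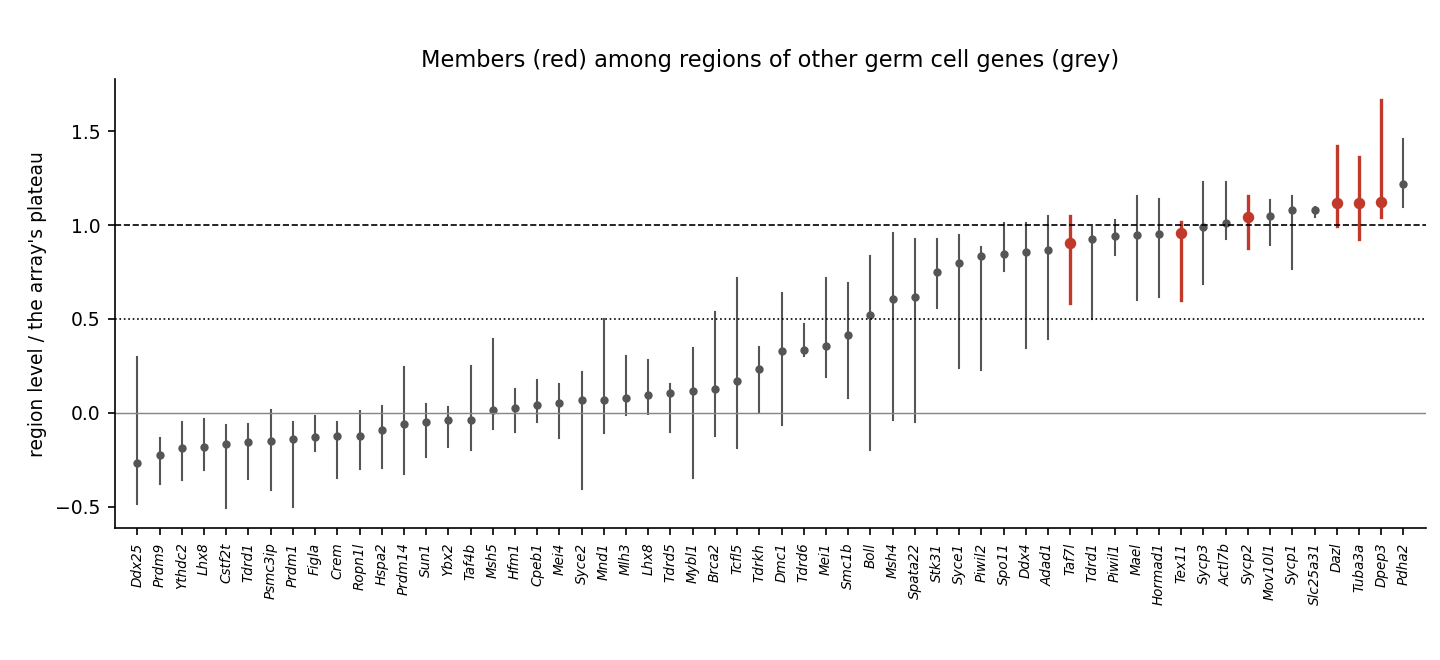
Share of the plateau for the 6 members (red) and for 52 regions of other germ cell genes (grey), ordered by median: lines run from the lowest to the highest of the 8 arrays and points mark the median. The members lie in the upper part, with medians of 0.90 (Taf7l) to 1.12 (Dpep3), and 28 grey regions stay below the dotted line at 0.5 on all 8 arrays.

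The regions whose shares over the 8 arrays were most like each member were sought among 12541 regions with a gene name, by Pearson's r. A search of that size over 8 arrays finds high values by itself, so the regions named are a description and no partners. For Dazl they were H2-Eb1 (0.989), Kcnj4 (0.988) and Rusc2 (0.984), and for Dpep3 Tusc1 (0.988), Phc3 (0.985) and Atxn1 (0.981). For Tuba3a they were Gdi2 (0.988), Dyrk2 (0.974) and Gne (0.973), and for Sycp2 Mthfd1 (0.978), Chac1 (0.974) and Zfp532 (0.973). For Taf7l they were Loxl2 (0.995), Dapk3 (0.986) and Arfgap2 (0.984), and for Tex11 Tas1r1 (0.982), Nrp1 (0.981) and Art3 (0.975). Likeness in pattern over the arrays was not likeness in level. The Loxl2 region ran from −0.72 to 0.14 of the plateau and the Tusc1 region from −0.07 to 0.28, while Kcnj4 and Rusc2 ran from 0.93 to 1.58 and from 0.96 to 1.42, close to the range of Dazl.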

How the data were processed

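Spot intensity came from the deposited scanner output of Agilent Feature Extraction, version 10.7.3.1 for ES mbd4-/- and the Gadd45a knockdown and 10.9.1.1 for the other 6 arrays. Per the labels, Cy3 is input and Cy5 bound DNA on every array. Processed signals had their background subtracted and a linear dye normalisation, per the file headers. Spatial detrending was on in version 10.7.3.1. The deposited log10 ratio served to check direction. The value table deposited by the authors is a score with mean 0 and SD near 1, of unstated scale and log base, with medians of −0.209 to −0.029. It correlated with the scanner ratios at 0.901 to 0.974, which gives its direction, and was an alternative only.

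From these files, log2 bound over input was centred on the median of 88737 probes. Probes without a position (326), with outlier flags (132) or with dim input on some array (7309) were left out of regions, which left 81105. The filter on dim input uses the input channel only. Region means were tested with limma 3.58.1 in R 4.3.3 with Benjamini-Hochberg adjustment over 13183 regions. On simulated ES against tissue data for 13183 regions, limma recovered 62% of shifts of 1.5 log2 and 93% of shifts of 3 log2. The simulated noise was independent for each region and array. It held no effect of array, plateau, genotype or scan day shared by regions, as the real arrays can. The recovery therefore does not tell how often a real difference of that size would pass. The number of arrays limits precision. Alternatives were background, scale, centring, GC, value source, filters, region joining, call threshold, batch and leaving out arrays.

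The members and lists were chosen with earlier results of these data known. Named genes are the 6 members, the 2 list regions with the largest positive and the 2 with the largest negative ES minus tissue difference, any list gene past the test if 5 or fewer passed, and the 3 most correlated regions per member. Dmc1, Spo11, Sycp1, Sycp3, Hormad1, Slc25a31, Mael and Piwil1 were named after their values were seen. How the value table was made is not given in the sources.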

Additional observations from a re-analysis of the deposited data

Results flagged for a closer look

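A difference that was not the same in ES cells and in tissues was found for 3 members. In this fit the ES difference is that of 1 pair of arrays. A region's own spread comes only from how far its liver and spleen differences disagree. The p values below therefore measure no spread between ES arrays of a genotype. The difference of aid-/- minus mbd4-/- in ES cells, minus the same difference in liver and spleen, was 2.28 log2 for Tex11, 2.18 for Sycp2 and 1.84 for Dazl (limma adjusted p of 0.019, 0.019 and 0.028 over 6 arrays), a test chosen after seeing the data. In each case the ES difference was near or above 0 and both tissue differences were below −1. Of all regions 455 (3.45%) passed this test, and Dpep3, Tuba3a and Taf7l did not (1.49, 1.53 and 1.46, adjusted p of 0.068, 0.053 and 0.064). With arrays at 1 plateau the differences were 0.56, 0.26 and 0.16 for Tex11, Sycp2 and Dazl, none passed (adjusted p of 0.880 to 0.980), and 11 regions passed in all. With regions joined within 250 bp, 8 regions passed and no member did. The plateaus of the aid-/- tissue arrays were 2.23 and 2.24, against 4.34 for aid-/- ES cells. The part of the plateaus in the main result was not tested beyond that scaling, and scan day cannot be told apart from genotype.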

How the results depend on the processing

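The number of members at or above 50% of the plateau stayed within 1.5 times of the main count under each alternative. Of the 48 values, 3 fell below that level under 1 or more alternatives, all in the Gadd45a knockdown: Taf7l at 0.417 (normexp), 0.456 (GC corrected) and 0.401 (deposited values), Tex11 at 0.497 (normexp) and Sycp2 at 0.470 (deposited values). No member passed the ES minus tissue comparison under any alternative. The count of all regions past it, 29, became 1 with normexp, 427 at 1 plateau, 457 with equal spread, 15 centred on the low mode, 54 with GC correction, 359 in deposited values, 5 with scan day as a block and 71 with slide as a random block, and 0 to 198 without 1 array. The sign of 3 members turned. Sycp2 was −0.296 with normexp, −0.445 at 1 plateau, −0.490 with equal spread and −0.884 in deposited values, and −0.143 to 0.736 without 1 array. Taf7l was −0.353, −0.623, −0.645 and −1.200 in the same order, −0.022 with GC correction, −0.039 with regions joined within 250 bp, and −0.359 to 0.515 without 1 array. Tex11 was −0.331, −0.593, −0.624 and −0.866, and −0.388 to 0.557 without 1 array. With slide as a random block Sycp2, Taf7l and Tex11 were 0.681, 0.358 and 0.554, and with scan day as a block 1.507, 1.142 and 1.280 (unadjusted limma p of 0.0079, 0.0083 and 0.0657). The scan day values come only from the day that held both ES cells and tissues. For aid-/- minus mbd4-/- within tissue, 1 region passed in deposited values. Without 1 array, with the plateaus as measured, 0 to 1128 of 13183 regions passed, with 0 to 6 members. At 1 plateau Sycp2 (0.200), Taf7l (0.055) and Tex11 (0.066) turned sign there, as did Dpep3 (−0.187) and Taf7l (−0.140) in the difference between ES cells and tissues. Members past the rule for 2 arrays, in either direction, changed as follows, as did the count of all regions past it. For all regions it was 90 to 3149 in aid-/-, 92 to 3378 in mbd4-/- and 218 to 3794 in knockdown ES cells against wild type. For aid-/- minus mbd4-/- it was 37 to 2583 in ES cells, 167 to 2521 in liver and 207 to 1949 in spleen. The member counts are not set against a share for each alternative and only describe the members. Of aid-/- minus wild-type ES cells, 1 passed with normexp, at 1 plateau, with equal spread and in deposited values, and 0 at 2 log2. The member at 1 plateau was Dpep3, called lower (−1.061), and neither Tex11 (0.880) nor Sycp2 (0.096) was called there. Of mbd4-/- minus wild type, 0 passed with normexp, at 1 plateau, with equal spread, in deposited values and at 2 log2, 2 centred on the low mode and 3 at 0.58 log2. Of knockdown minus wild type, 3 passed with normexp, 0 at 1 plateau and at 2 log2, 5 in deposited values and 2 at 0.58 log2. Of aid-/- minus mbd4-/-, 1 passed in ES cells at 0.58 log2. In liver 0 passed at 1 plateau, with equal spread and in deposited values, and 2 at 2 log2. In spleen 0 passed at 1 plateau, 1 with equal spread and 1 at 2 log2. Scaling moved these values by construction where plateaus differ; the cause of the others was not tested. Centring on the used probes and the ES against tissue difference of genotypes were chosen after seeing the data. The normexp alternative used median signals. A block for slide or scan day could not be fitted to aid-/- minus mbd4-/-. No paired analysis was possible because each group is 1 array and the replicate numbers pair nothing; only the tissue served as a block, in aid-/- minus mbd4-/-.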
